A study of Mus musculus with 24 samples.

Results

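Macrophages that received both wild-type lung cancer medium and CDDO-Me were compared with naïve macrophages that received neither, across every gene of the deposited table, to describe the net state the pair of treatments left behind. The members were chosen by their labels: the 3 WT CM/CDDO-Me libraries and the 3 media/vehicle libraries, 6 of the 24 libraries in the series. All 24 libraries are poly-A RNA sequencing of C57BL/6 bone marrow-derived macrophages (BMDMs), cells flushed from femurs and tibias and grown in M-CSF, the growth factor that drives marrow progenitors to become macrophages. The 8 groups of 3 combine 4 media, taken from plates with no cancer cells or conditioned (CM) by LL2 cancer cells that were WT, KO for NRF2 or KO for KEAP1, with vehicle or 100 nM CDDO-Me for 24 h.

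In the WT CM/CDDO-Me group, 75% of the culture medium was WT LL2 medium, harvested after 48 h on unedited Lewis lung carcinoma cells (LL2, a C57BL/6 line), and 100 nM CDDO-Me was present for the 24 h before RNA was taken. In the media/vehicle group, the medium came from a plate that held no cancer cells and the drug was replaced by vehicle. The macrophages were unedited in every group, since the KEAP1 and NRF2 mutations lie in the cancer cells only. The labels call the 3 samples of a group independent, and the number, sex and age of the mice are not given in the sources used here. Both the medium and the drug change in this comparison, so the share of either cannot be told apart from it alone, and the WT CM/vehicle and media/CDDO-Me groups are set beside it below. This is a culture model with a single carcinoma line, a single dose and a single time.

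CDDO-Me (bardoxolone methyl) is a synthetic oleanane triterpenoid that binds KEAP1 and so frees NRF2, the transcription factor of the antioxidant and detoxification genes. Macrophages are usually described between a classical state, which interferon gamma induces through factors such as IRF1 and which is rich in guanylate-binding proteins, chemokines and antigen presentation, and an alternative state, which IL-4 induces through STAT6 and which is marked by Retnla, Chil3 and Mrc1. Type I interferons use STAT2 and IRF9 to induce antiviral genes.

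The interferon-induced guanylate-binding protein (GBP) genes are among the largest rises reported below, so the start regions of 3 of them are shown. That of the NRF2 target Gclm, which also rose in the net comparison, is set beside them. The sequences are RefSeq promoters on GRCm38.p6, 250 bases before to 50 bases after the annotated start, all on the plus strand. The motifs searched on both strands were the interferon-stimulated response element (ISRE), GAAA and GAAA with any 2 bases between them, the gamma-activated site (GAS) TTCNNNGAA, through which interferon gamma acts, and the antioxidant response element (ARE) TGACNNNGC, the site of NRF2. The 2 GBP windows with only an ISRE were the first of the largest rises to hold one, Gbp5 was the first to hold both an ISRE and a GAS, and Gclm, which rose and holds an ARE, was taken as an example of an NRF2 target. Capitals mark the matches, which are letters in a window and not shown binding sites. The windows lie at chr3:142620413-142620712 for Gbp2, chr3:142594597-142594896 for Gbp2b, chr3:142496684-142496983 for Gbp5 and chr3:122245307-122245606 for Gclm.
Gbp2: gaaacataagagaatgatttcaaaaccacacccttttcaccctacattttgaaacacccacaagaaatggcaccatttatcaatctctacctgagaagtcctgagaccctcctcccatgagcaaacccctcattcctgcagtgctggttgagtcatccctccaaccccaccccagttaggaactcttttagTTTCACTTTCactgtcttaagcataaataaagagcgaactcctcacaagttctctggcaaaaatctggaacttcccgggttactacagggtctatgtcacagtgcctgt
Gbp2b: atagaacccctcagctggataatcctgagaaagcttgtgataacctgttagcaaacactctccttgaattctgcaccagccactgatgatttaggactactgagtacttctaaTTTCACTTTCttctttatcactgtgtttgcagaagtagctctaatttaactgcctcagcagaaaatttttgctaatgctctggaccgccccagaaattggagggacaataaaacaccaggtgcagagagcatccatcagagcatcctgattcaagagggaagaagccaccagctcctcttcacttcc
Gbp5: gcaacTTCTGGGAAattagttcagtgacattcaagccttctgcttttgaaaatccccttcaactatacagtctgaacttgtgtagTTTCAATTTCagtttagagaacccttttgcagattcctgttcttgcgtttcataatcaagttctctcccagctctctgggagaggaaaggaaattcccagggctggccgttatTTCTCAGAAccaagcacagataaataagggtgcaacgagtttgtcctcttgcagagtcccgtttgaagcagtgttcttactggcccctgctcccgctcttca
Gclm: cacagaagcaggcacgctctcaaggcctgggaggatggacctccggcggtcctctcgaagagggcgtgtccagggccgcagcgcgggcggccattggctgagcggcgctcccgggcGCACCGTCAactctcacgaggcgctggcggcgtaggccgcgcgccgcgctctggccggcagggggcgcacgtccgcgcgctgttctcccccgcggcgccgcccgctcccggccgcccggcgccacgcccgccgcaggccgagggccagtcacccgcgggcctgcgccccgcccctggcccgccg
The ISRE begins at position -59 of Gbp2, -137 of Gbp2b and -165 of Gbp5, counted from the annotated start and read on the strand shown, where it appears in its reverse-complement form. Gbp5 holds 2 GAS matches, at -245 and -52. The ARE of Gclm begins at -134. Of all 27025 promoter entries, 3.99% hold the ISRE letters, 9.55% the GAS letters and 14% the ARE letters. Among the interferon gamma GTPases and effectors with an entry, 13 of 22 (59.1%) hold an ISRE and 7 (31.8%) a GAS. Other lists that rose hold the ISRE less often: 3 of 21 interferon signalling factors (14.3%) and 4 of 15 MHC class I genes (26.7%). The same holds for 1 of 9 MHC class II genes (11.1%) and 1 of 6 immunoproteasome genes (16.7%). Among the type I interferon response genes, 17 of 29 (58.6%) hold an ISRE, and among the NRF2 glutathione and redox genes 8 of 17 (47.1%) hold an ARE. In the other NRF2 list, of detoxification, heme and iron genes, 6 of 20 (30%) hold an ARE, beside 17.1% of the tested genes with an entry. The window of Nqo1 holds none of the 3 motifs, and neither does that of Cxcl9, which had the largest named rise.

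Expression is given in TPM, the share of a library's transcripts that comes from a gene once its length is taken into account, scaled to the same total in every library. Values are listed for replicates 1, 2 and 3 in that order, media/vehicle first. Differences are WT CM/CDDO-Me minus media/vehicle on the log2(TPM + 1) scale after TMM scaling between libraries, which understates the change of low genes, with their standard error (SE) and the limma p-value adjusted by Benjamini and Hochberg over all 13661 genes tested. A gene is called higher or lower where that adjusted p is under 0.05. Before any comparison, 2 libraries stood apart: the replicate 3 libraries of NRF2 KO CM/vehicle and NRF2 KO CM/CDDO-Me listed 15702 and 16299 genes above 0, against 17817 to 18586 in the 6 libraries compared here. They enter no mean below, but they share the estimate of the spread.

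The macrophages kept the macrophage markers. All 14 genes of the macrophage identity list, which runs from the transcription factor Spi1 to the M-CSF receptor Csf1r, were above 1 TPM in all 6 libraries, and their summed level was 27840.0, 27347 and 28132 TPM in media/vehicle and 22937, 21692 and 20268 TPM in WT CM/CDDO-Me. Csf1r read 810.4, 727 and 936 TPM and then 722, 660.4 and 749 TPM (log2 difference -0.03, SE 0.23, adjusted p = 0.946). Lyz2, the lysozyme gene, was the most abundant of them at 18568, 18430.3 and 18674 TPM and 15375, 14254 and 12084 TPM. Of the 14, 2 were called higher, the Fc gamma receptor gene Fcgr1 and Aif1, and 2 lower, Maf and the lysosomal glycoprotein gene Cd68, near the 26.8% of all genes called in either direction. Leaving out the replicate 3 libraries of both NRF2 KO CM groups, which share the estimate of spread, gave 6 higher and 2 lower. These are bulk libraries, in which fewer cells of a type and less RNA per cell cannot be told apart.

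Of the 13661 genes tested, 3656 (26.8%) were called, 1890 higher (13.8%) and 1766 lower (12.9%). The largest changes were mostly rises: among called genes, 152 were higher and 34 lower by at least 3 on the log2 scale, and 46 were higher and 2 lower by at least 5. The median gene differed by -0.02 and the median size of a difference, sign left out, was 0.29. The groups of 3 did not overlap for 7175 genes (52.5%), and 3 against 3 libraries cannot reach an exact permutation p under 0.10, so the calls rest on the spread shared over the genes and groups. Without the 2 NRF2 KO CM libraries named above, the fit called 3369 genes higher and 2656 lower. Without TMM scaling the median gene fell by 0.17 and the split turned to 1433 higher and 2799 lower, so the near-even split depends on the scaling.

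**Figure D1:**
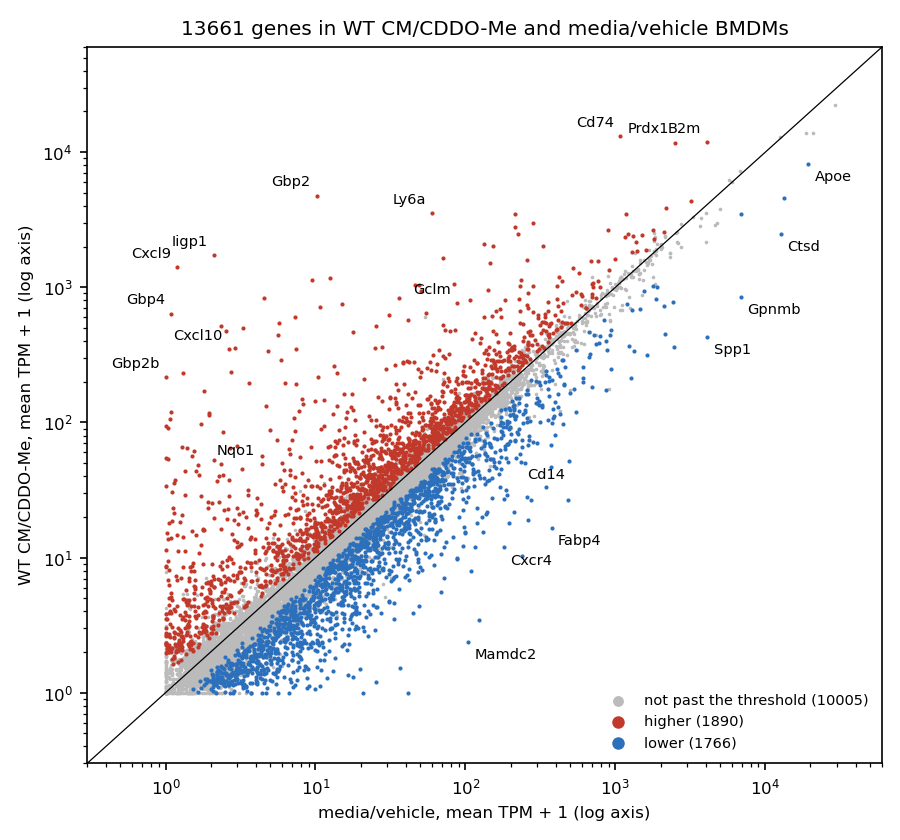
Mean TPM + 1 of the 3 media/vehicle libraries (x, log axis) against the mean of the 3 WT CM/CDDO-Me libraries (y, log axis) for 13661 genes, with the 1890 genes called higher in red, the 1766 called lower in blue and the line of equal values in black. Cxcl9, Iigp1 and the Gbp genes sit at the upper left, Cd74, Prdx1 and B2m at the upper right, and Ctsd, Gpnmb and Spp1 below the line at the right.

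The net state was led by genes of the interferon gamma response. The list of its GTPases and effectors, called the GTPase list below, held 34 genes. Beside GTPases that attack the vacuoles of intracellular microbes, it holds other genes such as Cxcl9, Cxcl10, Ly6a, Cd274 and Nos2. All 32 tested were called higher, beside 13.8% of all genes. Their median difference was 5.88 and their range 0.77 to 10.31. In a media/vehicle library 20 to 22 of the list were above 1 TPM, against 31 to 32 in a WT CM/CDDO-Me library, so some entered the test through the libraries in which they were high and their count is a description. Summed, they made up 572, 528 and 563 TPM in media/vehicle and 21737, 20533 and 22669 TPM in WT CM/CDDO-Me.

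Gbp2 read 9.03, 9.08 and 9.41 TPM in the naïve libraries and 4494, 4152 and 5675 TPM in the WT CM/CDDO-Me libraries, a difference of 9.03, SE 0.22, adjusted p = 8.78e-17. It was the most abundant GBP and its mean was 520.4 times the naïve mean. Iigp1, an immunity-related GTPase, rose from 1.07, 1.17 and 1.1 TPM to 1647, 1688 and 1879.6 TPM (log2 difference 9.83, SE 0.16, adjusted p = 3.58e-19). Gbp4 was all but absent before, at 0.0664, 0.0923 and 0.124 TPM, and read 604, 607 and 703 TPM after (log2 difference 9.31, SE 0.22, adjusted p = 4.98e-17). For all 3 genes the naïve libraries stayed under 10 TPM. The groups were far apart, and no overlap was a condition for naming the largest rises. Gbp2b was listed at 0 in all 3 naïve libraries and at 253, 177 and 213 TPM in WT CM/CDDO-Me, so no fold is given.

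Gbp5 went from 1.61, 1.02 and 1.95 to 517, 441 and 472 TPM and Gbp6 from 0.856, 0.862 and 2.36 to 477, 457 and 608 TPM. The T cell-specific GTPases Tgtp1 and Tgtp2 and the immunity-related GTPase Igtp rose by 7.23, 7.69 and 6.73 on the log2 scale. Tgtp1 and Tgtp2, Gbp2 and Gbp2b, and Gbp6 and Gbp10 are near copies, as are Psme2 and Psme2b, Ifi204 and Mndal, and Serpina3f and its neighbours, so the split of reads within each set is uncertain. Serpina3f, a serine protease inhibitor gene, rose from 0.388, 0.357 and 0.192 to 226, 236 and 233 TPM, and Ly6a, the gene of the surface antigen Sca-1, from 76, 63.99 and 36.5 to 3509, 3489 and 3654 TPM.

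The genes lie in clusters. On GRCm39, 5 Gbp genes lie on chromosome 3 between 142199739 and 142343779, a stretch of 144.0 kb, and 6 on chromosome 5 between 105162016 and 105494338, a stretch of 332.3 kb. All 11 were tested and called higher, beside 13.8% of all genes. Cxcl9 and Cxcl10, chemokines that draw CXCR3-bearing T cells, were among the 12 largest rises as well. Cxcl9 had the largest rise of the named genes, from 0.0576, 0.544 and 0 TPM to 1792, 1458 and 981 TPM (log2 difference 10.31, SE 0.24, adjusted p = 4.21e-17), and Cxcl10 rose from 2.01, 0.946 and 2.01 TPM to 361, 329 and 358 TPM (log2 difference 7.22, SE 0.32, adjusted p = 1.09e-12). Replicate 3 was the lowest of the 3 WT CM/CDDO-Me libraries for Cxcl9 and still stood above every naïve library. Bst1, a cell-surface ADP-ribosyl cyclase gene of marrow stroma and myeloid cells, rose from 1.77, 2.09 and 3.02 TPM to 531, 495 and 481 TPM.

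Of 24 interferon signalling factors tested, 19 were called higher and none lower (median 1.46), beside 13.8% and 12.9% of all genes, with 19 higher and 1 lower without scaling. Irf1, a transcription factor that interferon gamma induces, rose from 48.4, 46.7 and 54.2 TPM to 889.5, 915 and 986 TPM (log2 difference 4.38, SE 0.25, adjusted p = 7.34e-11). Irf7, which type I interferon induces, rose by 3.27, SE 0.19, adjusted p = 8.97e-11, and Irf8, a macrophage lineage factor, by 1.81, SE 0.19, adjusted p = 5.14e-07. Ciita, the master regulator of MHC class II transcription, went from 5.4, 3.35 and 7.11 TPM to 190.0, 185 and 214 TPM.

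Batf2, a factor of activated macrophages, rose by 5.79 and the feedback inhibitor Socs1 by 6.06. The receptor genes Ifngr1, Ifngr2 and Ifnar1 were not called, at -0.05, 0.08 and -0.15, with Ifngr1 at 168, 183 and 173 TPM and 154, 149 and 146 TPM. Ifng and Ifnb1, the genes of interferon gamma and beta, were listed at 0 in all 6 libraries and did not pass the filter on low values.

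The type I interferon list, the antiviral genes, was called higher at 36 of 38 tested members, with none lower and a median of 2.25, beside 13.8% of all genes called higher. Ifi204 and Mndal, cytosolic DNA sensors of the same family, rose by 2.44 and 3.04. Zbp1, a sensor of Z-form nucleic acids, read 5.04, 7.06 and 7.28 TPM and then 340.3, 311 and 388 TPM, with no overlap (log2 difference 5.72, SE 0.27, adjusted p = 3.02e-12). Isg15, a ubiquitin-like modifier, went from 12.5, 12.7 and 11.2 to 110.3, 117 and 117 TPM and Ifit1, which binds foreign RNA ends, from 2.49, 1.91 and 2.3 to 35.8, 39.4 and 56.8 TPM. Bst2, a tether of budding virions, rose by 1.73. The 2 members not called were Isg20 at -0.03 and Ifitm3 at 0.39.

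Most genes of antigen presentation were called higher, from peptide supply to display. Of the MHC class II list, which holds the alpha and beta chains, the loading factors and the invariant chain, 10 of 11 tested were called higher with a median of 3.59, again beside 13.8% of all genes. Cd74, the invariant chain, read 1061, 1019 and 1137 TPM and then 13419, 12593 and 13314 TPM (log2 difference 3.79, SE 0.29, adjusted p = 4.12e-09) and became the most abundant gene of its list. H2-Ab1, a class II beta chain, rose from 220.2, 203 and 212 TPM to 3501, 3409 and 3616 TPM (log2 difference 4.22, SE 0.32, adjusted p = 3.83e-09). H2-Aa, H2-Eb1, H2-DMa and H2-DMb1 rose by 3.59, 3.66, 4.60 and 3.73. The class II list summed to 7301, 8015 and 8418 TPM and then 30300.5, 29267 and 32001 TPM, with no overlap.

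Of the MHC class I list, 16 of 18 were called higher with a median of 2.27, against the same share of all genes. B2m, the light chain shared by all class I molecules, rose from 4151, 4273 and 3916 TPM to 11945, 11791 and 11677 TPM (log2 difference 1.70, SE 0.36, adjusted p = 0.00119), which made it one of the 3 largest rises in TPM. The heavy chains H2-K1, H2-D1 and H2-T23 rose by 1.76, 1.00 and 2.80, and Tapbp, which bridges the peptide transporter to class I, by 2.32. All 6 immunoproteasome genes were called higher (median 2.34). Psmb8, a catalytic subunit that replaces its constitutive counterpart, read 133, 147 and 142 TPM and then 942, 924 and 1018 TPM, and Psmb9, Psmb10, Psme1 and Psme2 rose by 2.97, 2.35, 2.21 and 2.32. The constitutive proteasome had 16 of 31 members called higher and 1 lower, beside 13.8% and 12.9% of all genes, and a median of 0.39, with 11 higher and 1 lower without scaling and 26 higher and 1 lower without the 2 NRF2 KO CM libraries.

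On GRCm39, 22 MHC, Tap, Tapbp and immunoproteasome genes lie on chromosome 17 between 34134873 and 37585384. All 22 were tested and called higher, beside 13.8% of all genes. A checkpoint ligand and a costimulatory ligand of presenting cells rose too. Cd274, which encodes PD-L1, rose from 24.7, 22.8 and 24.7 TPM to 356, 321 and 386 TPM (log2 difference 4.00, SE 0.30, adjusted p = 3.29e-09). Cd86, a ligand of CD28, rose from 5.78, 5.86 and 6.34 TPM to 75.7, 66.1 and 76.1 TPM (log2 difference 3.56, SE 0.37, adjusted p = 3.7e-07). Neither gene's groups overlapped, as for 52.5% of all genes.

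**Figure D2:**
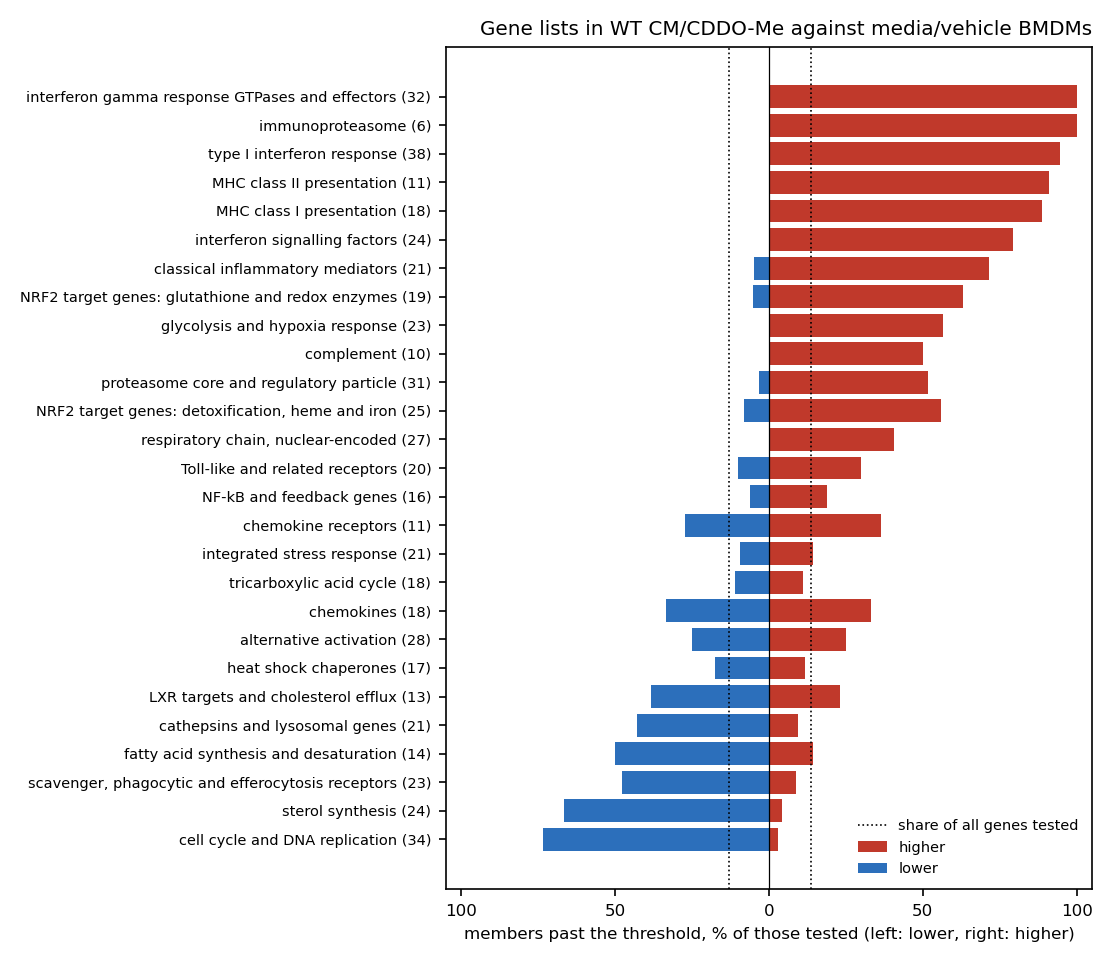
For each gene list, the percent of its tested members (number in parentheses) called higher in WT CM/CDDO-Me than in media/vehicle (red bars to the right) and called lower (blue bars to the left), with dotted lines at the shares of all 13661 genes, 13.8% and 12.9%. All tested members are higher in the GTPase and immunoproteasome lists, while 25 of 34 cell cycle and 16 of 24 sterol genes are lower.

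Many NRF2 target genes were above the naïve level. Of the glutathione and redox enzymes, 12 of 19 tested were called higher and 1 lower (median 0.94), beside 13.8% and 12.9% of all genes. Of the detoxification, heme and iron genes, 14 of 25 were called higher and 2 lower (median 0.67). Nqo1, a quinone reductase and standard readout of NRF2, rose from 2.63, 2.51 and 4.96 TPM to 41.6, 42.7 and 60.5 TPM (log2 difference 3.68, SE 0.33, adjusted p = 3.86e-08). Gclm, the modifier subunit of the glutathione synthesis enzyme, rose from 77.9, 81.6 and 101 TPM to 810.0, 749 and 741 TPM (log2 difference 3.31, SE 0.28, adjusted p = 1.9e-08). Prdx1, a peroxide-removing enzyme, rose from 2077, 2534 and 2876 TPM to 12608, 11029 and 11602 TPM (log2 difference 2.42, SE 0.15, adjusted p = 2.2e-10), and was one of the 5 largest rises in TPM.

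The groups did not overlap for any of these 3, as for 52.5% of all genes. Txn1 (thioredoxin), Cat (catalase) and the pentose phosphate genes Taldo1 and Pgd rose by 2.79, 1.19, 1.59 and 1.30, and Blvrb, Mgst1, Gstp1 and the heme transporter Slc48a1 by 2.05, 1.99, 1.90 and 0.87. Hmox1, the heme oxygenase gene, read 365, 382 and 368 TPM and then 564, 533 and 537 TPM, a smaller rise of 0.73, SE 0.18, adjusted p = 0.00449. Idh1, Blvra and Mt1 were called lower, Mt1 not under every alternative.

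Against the drug alone, many NRF2 genes stood lower. In media/CDDO-Me, Nqo1 read 104, 78.98 and 219 TPM, and WT CM/CDDO-Me differed from it by -1.17, SE 0.33, adjusted p = 0.0115. Hmox1 read 989, 939.7 and 1394 TPM there, a difference of -0.83, SE 0.18, adjusted p = 0.00166, and Cat 1512, 1424 and 1183 TPM, a difference of -0.97, SE 0.20, adjusted p = 0.00108. Over the redox list, 10 of 19 members were lower and 1 higher in WT CM/CDDO-Me than in media/CDDO-Me, beside 13.1% and 13.7% of all genes, and over the detoxification list 12 of 25 were lower and 2 higher. Prdx1 at 12449, 12015 and 14206 TPM differed by 0.04 (adjusted p = 0.896), with a 95% interval of -0.28 to 0.36. Nfe2l2, which encodes NRF2, fell from 272, 267 and 231 TPM in media/vehicle to 119.6, 111 and 90.6 TPM in WT CM/CDDO-Me (log2 difference -1.08, SE 0.26, adjusted p = 0.00368), and Keap1 rose from 38.3, 35.8 and 36.1 to 62.2, 61.7 and 61.02 TPM (log2 difference 0.91, SE 0.20, adjusted p = 0.00157).

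Retnla and Chil3, markers of alternative activation that were high in WT CM/vehicle, were not called different from naïve macrophages when CDDO-Me was present. Retnla, a secreted IL-4 response gene, was listed at 0 in every media/vehicle, media/CDDO-Me and WT CM/CDDO-Me library and at 1990.0, 1753 and 3262 TPM in WT CM/vehicle. Chil3, a chitinase-like protein, read 1.09, 3.87 and 2.31 TPM, then 461, 668 and 1257 TPM with WT CM and vehicle, and 0.856, 3.7 and 1.56 TPM with CDDO-Me. Its net difference was -0.09, with an interval of -1.02 to 0.84.

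Other genes of the list ended above or below the naïve level. Of 28 tested, 7 were called higher and 7 lower, with a median of 0.01, beside 13.8% and 12.9% of all genes. Mrc1, the mannose receptor, was at 1306, 1193 and 1015 TPM with WT CM and vehicle, and fell below naïve with CDDO-Me, from 157, 164 and 188 TPM to 59.9, 76.2 and 48.3 TPM (log2 difference -1.30, SE 0.25, adjusted p = 0.000469). Mmp12, macrophage elastase and the most abundant of the list, fell from 1966, 2436 and 2973 TPM to 379, 350.4 and 361 TPM (log2 difference -2.56, SE 0.30, adjusted p = 1.5e-06), and Pparg, a lipid-sensing nuclear receptor, had a log2 difference of -1.45.

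In the other direction, the lectin Clec10a rose from 26.4, 27.8 and 27.1 TPM to 95.9, 102 and 77.7 TPM (log2 difference 1.89, SE 0.17, adjusted p = 4.34e-08), and Il4ra, the IL-4 receptor alpha chain, from 59.2, 56.4 and 63.6 TPM to 349, 340.0 and 259 TPM (log2 difference 2.55, SE 0.13, adjusted p = 1.29e-11). Clec10a was higher still in WT CM/vehicle, at 408, 356 and 295 TPM. Stat6, the factor downstream of that receptor, read 143, 133 and 135 TPM and 106, 111 and 107 TPM (log2 difference -0.16, SE 0.11, adjusted p = 0.329) and was called lower under some alternatives. Il4 was read at 18.02, 19.3 and 24.6 TPM in the naïve libraries and 6.21, 3.55 and 2.71 TPM in WT CM/CDDO-Me (log2 difference -1.96, SE 0.36, adjusted p = 0.000319).

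**Figure D3:**
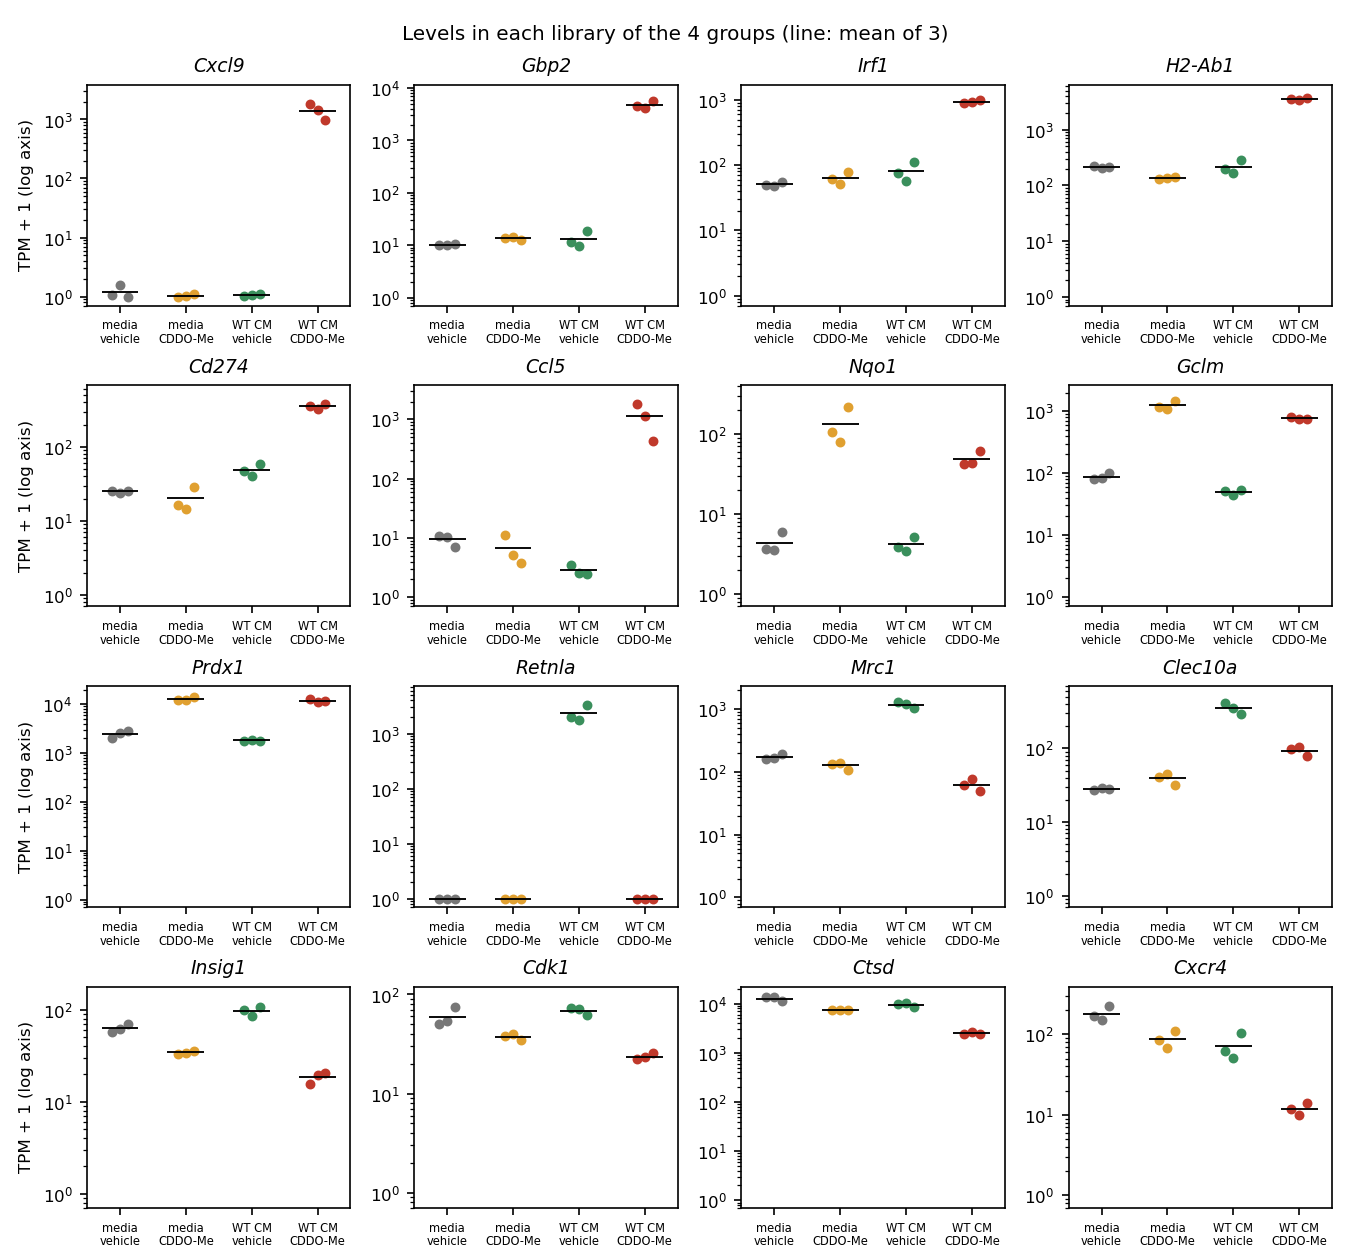
TPM + 1 (log axis) of 16 genes in each library of media/vehicle, media/CDDO-Me, WT CM/vehicle and WT CM/CDDO-Me, with a line at the mean of each 3. Cxcl9, Gbp2, Irf1, H2-Ab1 and Ccl5 are high in WT CM/CDDO-Me alone among the 4 groups, Nqo1, Gclm and Prdx1 are high in both CDDO-Me groups, and Retnla is high in WT CM/vehicle alone.

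Of 21 classical inflammatory mediators tested, 15 were called higher and 1, Il1a, lower (median 1.54), beside 13.8% and 12.9% of all genes. In a media/vehicle library 14 to 17 of the 25 members were above 1 TPM, against 18 to 20 in a WT CM/CDDO-Me library, so some may have entered the test only through libraries in which they were high and the count is a description. Ptgs2, the inducible cyclooxygenase, rose from 1.01, 1.14 and 1.88 TPM to 39.7, 46.4 and 57.9 TPM (log2 difference 4.54, SE 0.35, adjusted p = 4.76e-09), and Saa3, an acute-phase protein, from 0.652, 0.303 and 1.24 TPM to 141, 71.6 and 76.4 TPM (log2 difference 5.92, SE 0.68, adjusted p = 1.32e-06). Tnf rose from 12.9, 13.9 and 13.4 TPM to 35.4, 40.7 and 39.5 TPM (log2 difference 1.62, SE 0.24, adjusted p = 2.99e-05), in 3 of 3 libraries. Nos2, the inducible nitric oxide synthase, read 0.0549, 0.0197 and 0.0878 TPM and then 10.2, 9.08 and 2.09 TPM (log2 difference 2.84, SE 0.49, adjusted p = 0.000151), so it was called and still low. Casp1 and Casp4, inflammatory caspases, and the inflammasome sensor Nlrp3 rose by 1.59, 1.76 and 1.51.

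Il6 read 0.491, 0.121 and 0.132 TPM and then 4.83, 2.62 and 0.821 TPM, called at an adjusted p of 0.0118 and lost under some alternatives. Il1b read 0.765, 1.15 and 0.712 TPM and 12.5, 3.31 and 2.31 TPM and was not called (log2 difference 1.75, SE 0.69, adjusted p = 0.0687). Replicate 1 was the highest of the WT CM/CDDO-Me libraries for both genes.

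Of 18 chemokines tested, 6 were called higher and 6 lower (median -0.11), beside 13.8% and 12.9% of all genes. Cxcl9, Cxcl10 and Cxcl11 are counted in the GTPase list instead, and Ccl17, Ccl22 and Ccl24 under alternative activation. Cxcl9 and Cxcl10 rose, as given above. Ccl5, a chemoattractant of T cells and monocytes, rose from 9.73, 9.45 and 6.09 TPM to 1806, 1149.5 and 433 TPM (log2 difference 6.87, SE 0.72, adjusted p = 3.63e-07), with the 3 treated libraries spread more than 4 times apart. Ccl3, a ligand of CCR1, fell from 109.7, 116 and 117 TPM to 10.4, 12.3 and 9.92 TPM (log2 difference -3.11, SE 0.25, adjusted p = 1.02e-08), and Ccl9 from 197, 181 and 249 TPM to 32.6, 14 and 16.1 TPM (log2 difference -3.17, SE 0.28, adjusted p = 3.98e-08). Cxcl16, the ligand of CXCR6, and the monocyte chemoattractant Ccl2 were called higher at 0.69 and 1.02, not under every alternative. Cxcl5, a neutrophil chemoattractant, read 8.53, 5.88 and 8.04 and 36.4, 19.03 and 7.49 TPM and was not called (adjusted p = 0.0575).

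Of 11 chemokine receptors, 4 were called higher and 3 lower, beside the same shares. Ccr2 and Fpr2, receptors for CCL2 and formyl peptides, rose by 1.46 and 3.25. Cxcr4, the receptor of CXCL12, fell from 168, 151 and 222 TPM to 10.8, 8.94 and 13.01 TPM (log2 difference -3.76, SE 0.34, adjusted p = 4.87e-08), and Cx3cr1, the fractalkine receptor, from 20.3, 20.4 and 15.6 TPM to 0.35, 1.12 and 0.0587 TPM (log2 difference -3.67, SE 0.36, adjusted p = 1.59e-07). Both receptors were among the 12 largest falls, a set for which no overlap between groups was required.

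Of 16 members of the NF-kB list, 3 were called higher and 1 lower (median 0.22), near the 26.8% of all genes called in either direction, and 1 higher and 1 lower without scaling. Icam1, an adhesion molecule, had the largest of the 3 rises, from 39.2, 33.5 and 39.6 TPM to 265, 271 and 288 TPM (log2 difference 3.02, SE 0.18, adjusted p = 7.8e-11). Tnip1, an inhibitor of the pathway, fell from 74.9, 69.8 and 72.2 TPM to 36.9, 35.5 and 36.1 TPM (log2 difference -0.80, SE 0.18, adjusted p = 0.00153).

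Of 20 Toll-like and related receptors, 6 were called higher and 2 lower, beside 13.8% and 12.9% of all genes, and 10 higher and 3 lower without the 2 NRF2 KO CM libraries. The intracellular sensors Sting1 and Nod1 rose from 41.1, 43.2 and 48.7 TPM to 280.0, 272 and 286 TPM and from 11.1, 14.5 and 12.1 TPM to 70.9, 69.4 and 76.7 TPM. The adaptor Myd88 and the DNA receptor Tlr9 rose by 1.40 and 1.98. Cd14, the lipopolysaccharide co-receptor, fell from 249.8, 215 and 238 TPM to 56.6, 47.1 and 45.7 TPM (log2 difference -2.04, SE 0.36, adjusted p = 0.000212), and the RNA receptor Tlr7 from 88.7, 81.3 and 117 TPM to 16.1, 17.97 and 30.5 TPM (log2 difference -1.96, SE 0.46, adjusted p = 0.00284).

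Of 10 complement genes tested, 5 were called higher and none lower (median 1.16), beside 13.8% and 12.9% of all genes. C3, the central component, went from 14.3, 10.7 and 6.09 TPM to 191, 143 and 102 TPM (log2 difference 3.88, SE 0.33, adjusted p = 2.07e-08), Cfb, factor B of the alternative pathway, from 3.47, 3.47 and 3.19 TPM to 65.04, 39.7 and 60.8 TPM, and C4b from 1.83, 1.4 and 0.338 TPM to 31.4, 46.6 and 29.8 TPM. None of these 3 overlapped between the groups, as for 52.5% of all genes. C1qb, already abundant, rose by 0.62, SE 0.14, adjusted p = 0.0026, a call lost without scaling.

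Of 23 scavenger, phagocytic and efferocytosis receptors, 11 were called lower and 2 higher (median -0.83), beside 12.9% and 13.8% of all genes. Without the 2 NRF2 KO CM libraries, 13 were called lower and 9 higher. Mfge8 and Gas6, bridges to dying cells, fell from 1377, 1357 and 1063 TPM to 183, 237 and 218 TPM (log2 difference -2.39, SE 0.29, adjusted p = 2.42e-06) and from 502, 412 and 416 TPM to 102, 109.6 and 79.4 TPM (log2 difference -2.01, SE 0.21, adjusted p = 4.17e-07). The complement receptor C3ar1 fell from 417, 440.3 and 423 TPM to 114, 121 and 110.4 TPM (log2 difference -1.71, SE 0.14, adjusted p = 9.59e-09). Trem2, a lipid receptor, was called lower at -1.02, not under every alternative. The Fc receptor gene Fcgr3 and the integrin chain Itgb2 were the 2 called higher.

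Of 21 cathepsins and lysosomal genes, 9 were called lower and 2 higher (median -0.41), beside the same shares of all genes, with 13 lower without scaling and 14 lower and 3 higher without the 2 NRF2 KO CM libraries. Ctsd and Ctsb, abundant lysosomal proteases, fell from 13472, 13369 and 11226 TPM to 2428, 2604 and 2412 TPM (log2 difference -2.17, SE 0.25, adjusted p = 1.51e-06) and from 13524, 13002 and 13361 TPM to 4136, 4474 and 5020.0 TPM (log2 difference -1.38, SE 0.28, adjusted p = 0.000739). Gpnmb, a glycoprotein of lipid-laden macrophages, fell from 7434, 6823 and 6316 TPM to 667, 743 and 1141 TPM (log2 difference -2.87, SE 0.33, adjusted p = 1.18e-06). Ctsc, which activates granule proteases, went the other way, from 152, 167 and 137 TPM to 1901, 1854 and 2324 TPM (log2 difference 3.90, SE 0.17, adjusted p = 1.1e-12). The list summed to 50554, 49225 and 47701 TPM and then 19363, 20126 and 21854 TPM.

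Of 24 genes of the path from acetyl-CoA to cholesterol and its SREBP regulators, 16 were called lower and 1, Pmvk, higher (median -1.09), beside 12.9% and 13.8% of all genes. Insig1, the sterol sensor that retains SREBP, fell from 56.7, 60.02 and 69.3 TPM to 14.7, 18.7 and 19.4 TPM (log2 difference -1.60, SE 0.13, adjusted p = 8.02e-09). Hmgcs1, Msmo1 and Fdps, enzymes of the path, fell, with log2 differences of -1.59, -1.43 and -1.05. So did Srebf2, the regulator, at -0.99. In WT CM/vehicle the same list had a median of 0.69 over naïve and in media/CDDO-Me one of -0.56.

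Of 14 fatty acid synthesis genes, 7 were called lower and 2 higher (median -0.51), beside 12.9% and 13.8% of all genes, with Fasn (fatty acid synthase) from 33.2, 31.7 and 22.9 TPM to 9.14, 12.6 and 10.4 TPM and Acsl1, which activates fatty acids, higher by 1.23. Of 13 LXR targets and cholesterol efflux genes, 5 were called lower and 3 higher, beside the same shares, and 6 lower and 1 higher without scaling. Apoe, the lipid carrier and the largest fall in TPM, read 21299, 18908 and 17740.1 TPM and then 8403, 8962 and 7336 TPM (log2 difference -1.05, SE 0.16, adjusted p = 4.55e-05), a call lost with no filter on low values. Apoc2 fell from 86.5, 75.3 and 100.2 TPM to 11.98, 7.89 and 6.19 TPM, while Abcg1, a cholesterol exporter, rose by 1.03, SE 0.22, adjusted p = 0.00129.

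**Figure D4:**
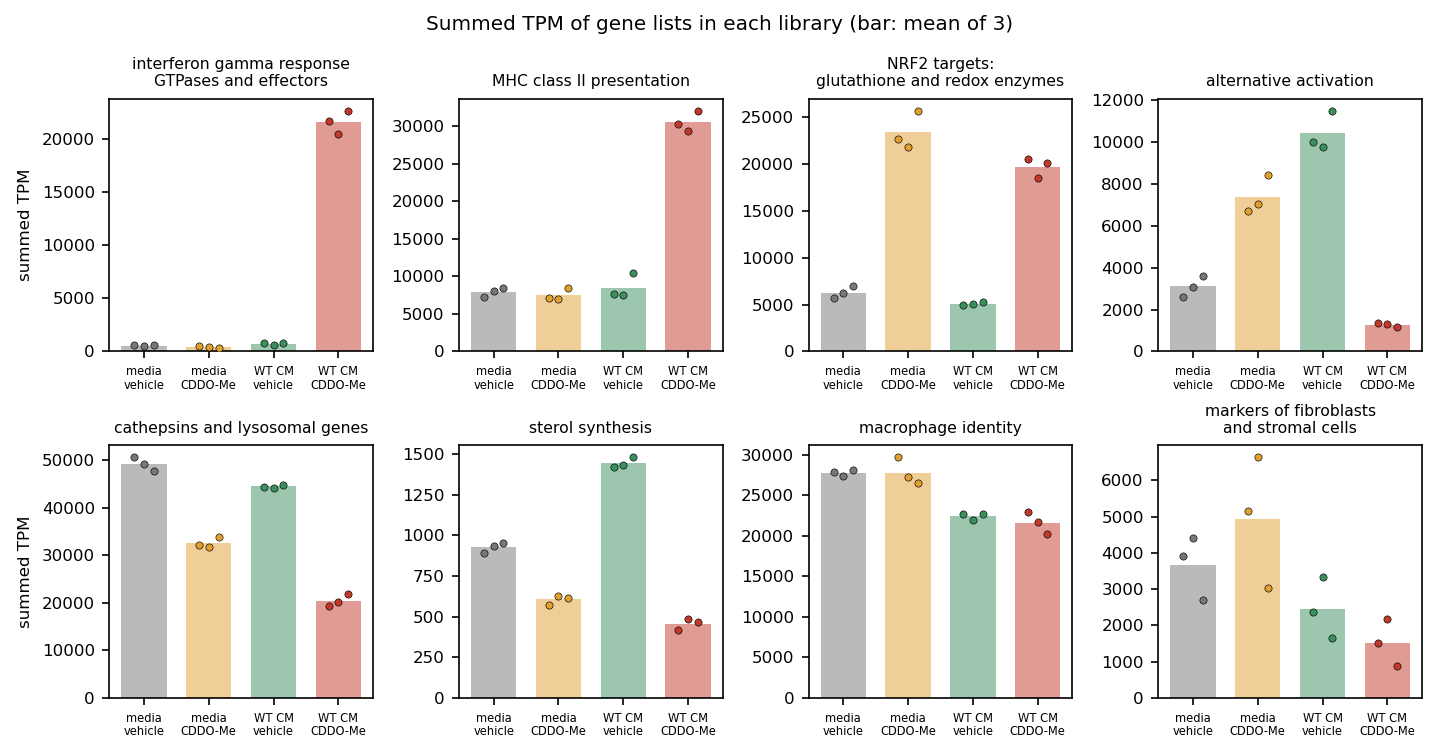
Summed TPM of 8 gene lists in each library of media/vehicle, media/CDDO-Me, WT CM/vehicle and WT CM/CDDO-Me, with bars at the mean of 3 and points for the libraries. The sum of the GTPases and effectors lies between 20533 and 22669 TPM in WT CM/CDDO-Me. It is at or under 805 TPM in the other 3 groups. The NRF2 redox sum is high in both CDDO-Me groups, and the cathepsin sum is lowest in WT CM/CDDO-Me.

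Of 34 cell cycle and DNA replication genes tested, 25 were called lower and 1 higher (median -1.19), beside 12.9% and 13.8% of all genes. Cdk1, the mitotic kinase, fell from 48.9, 53.5 and 74.1 TPM to 21.1, 22.3 and 24.4 TPM (log2 difference -1.15, SE 0.23, adjusted p = 0.000752), and the replication genes Mcm3, Mcm6, Tk1 and Rrm1 fell with log2 differences of -1.25, -1.16, -1.50 and -0.81. The gene called higher was Cdkn1a, which encodes the cell cycle inhibitor p21, from 133, 159 and 123 TPM to 291, 338 and 258 TPM (log2 difference 1.27, SE 0.21, adjusted p = 0.000113). The other CDK inhibitor among the named genes, Cdkn1c, went the opposite way and was among the largest falls, from 165, 148 and 55.3 TPM to 1.72, 3.69 and 1.86 TPM (log2 difference -4.93, SE 0.30, adjusted p = 1.64e-10).

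Of 23 glycolysis and hypoxia response genes, 13 were called higher and none lower (median 0.69), beside 13.8% and 12.9% of all genes, with 10 called higher without scaling. Pkm, pyruvate kinase, went from 1137, 1079 and 1249.6 TPM to 2183, 2271 and 2664 TPM (log2 difference 1.21, SE 0.12, adjusted p = 1.37e-07), Gapdh from 1607, 1511 and 1389 TPM to 2586, 2437 and 2325 TPM and Gpi1 by 0.85. Of 27 nuclear-encoded respiratory chain genes, 11 were called higher and none lower (median 0.33), such as Atp5f1b at 0.68 and Cox5a at 0.78, with 6 higher and 1 lower without scaling and 20 higher and none lower without the 2 NRF2 KO CM libraries. Of 18 tricarboxylic acid cycle genes, 2 were higher, among them Cs (citrate synthase) at 0.69, and 2 lower, among them Idh2 at -0.70. These shares were near the 13.8% and 12.9% of all genes. Without scaling 1 was higher and 3 lower, and without the 2 NRF2 KO CM libraries 8 were higher and 3 lower. The median of this list was 0.10, against -0.02 over all genes.

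Of 17 heat shock chaperones, 2 were called higher and 3 lower, near the 26.8% of all genes called in either direction, with Hspa8, the constitutive chaperone, from 1228, 1303 and 1087 TPM to 2558, 2563 and 2294 TPM and the co-chaperone Bag3 lower, with a log2 difference of -0.52. Of 21 genes of the integrated stress response, 3 were called higher and 2 lower, also near that share. Without scaling 2 were higher and 4 lower, and without the 2 NRF2 KO CM libraries 8 were higher and 6 lower. Slc3a2, a subunit of amino acid transporters, rose by 1.59 and Mthfd2, a mitochondrial folate enzyme, by 1.40, while Atf3 fell from 441, 487 and 444 TPM to 242, 269 and 253 TPM (log2 difference -0.67, SE 0.14, adjusted p = 0.00088).

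Mamdc2 had the largest fall of the named genes, from 94.6, 107 and 109 TPM to 1.38, 1.77 and 1.02 TPM (log2 difference -5.33, SE 0.32, adjusted p = 1.12e-10). Fabp4, a fatty acid-binding protein that PPARG induces, fell from 409, 462 and 257 TPM to 17.7, 17.1 and 12.1 TPM (log2 difference -4.31, SE 0.19, adjusted p = 1.08e-12), and Spp1, which encodes osteopontin, from 3876, 4309.8 and 4134 TPM to 328, 474 and 487 TPM (log2 difference -3.10, SE 0.19, adjusted p = 1.22e-10). Dhrs3, a retinal reductase, fell from 521, 483 and 442 TPM to 26.3, 31.3 and 18.9 TPM and Fam20c, a secretory pathway kinase, from 238, 262 and 214 TPM to 11.8, 10.4 and 5.76 TPM. The groups were apart for all 5, which the rule that named them required.

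Dio2 (thyroid hormone deiodinase), Bex1 and Mcoln3, an endolysosomal channel, had log2 differences of -4.36, -4.32 and -3.66. Ms4a4a, a membrane protein of alternatively activated macrophages, read 43.04, 46.2 and 113 TPM and then 2.71, 1.53 and 9.42 TPM (log2 difference -3.60, SE 0.59, adjusted p = 9.29e-05). It stood at 845, 558 and 953 TPM in WT CM/vehicle. Trav13-4-dv7, a T cell receptor segment, was listed at 41.5, 42.8 and 36.1 TPM in the naïve libraries and at 0 in all 3 WT CM/CDDO-Me libraries.

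The fibroblast and stromal list, all 18 members above 0 and 17 or 18 above 1 TPM in each library, summed to 3928, 4407 and 2703 TPM in media/vehicle, where Sparc was the most abundant, and 1512, 2176 and 868 TPM in WT CM/CDDO-Me, where Bgn was. Replicate 2 was highest and replicate 3 lowest in each group. Of the 18, 5 were called lower, among them Acta2 (smooth muscle actin) from 379, 435 and 367 TPM to 73.8, 113 and 52.7 TPM (log2 difference -2.18, SE 0.33, adjusted p = 4.08e-05), Postn and, not under every alternative, Sparc. None was called higher, beside 12.9% lower and 13.8% higher of all genes, and 8 were lower without scaling and 10 without the 2 NRF2 KO CM libraries. Cxcl12, made by stromal cells, followed the same replicate order at 314, 386 and 123 and 25.7, 40.2 and 11.4 TPM. The part of these cells in the falls reported here was not tested.

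The 9 epithelial and carcinoma markers summed to 2.73, 2.25 and 3.19 TPM in media/vehicle, mostly Krt19, and none was above 1 TPM in a WT CM/CDDO-Me library, where they summed to 0.613, 1.35 and 0.868 TPM. Epcam read 0.029, 0 and 0.0419 and then 0.0217, 0.272 and 0.0455 TPM. The 14 T and B cell markers summed to 17.7, 16.5 and 15.3 and then 7.6, 9.98 and 8.6 TPM, most of it Cd4, and the T cell receptor gene Cd3e read at most 0.19 TPM in any of the 6 libraries. In the natural killer list, the sum rose from 1.42, 0.939 and 0.882 to 46.8, 44.9 and 103 TPM, nearly all of it Klrk1, which encodes the receptor NKG2D, at 46.3, 44.5 and 102 TPM, while Gzma was listed at 0 in all 6 libraries and the receptor gene Ncr1 stayed under 1 TPM. The neutrophil and mast cell list summed to 24.4, 38 and 34.5 and 34.3, 61.02 and 44.3 TPM, with S100a8, the most abundant in WT CM/CDDO-Me, called higher and Kit and Mcpt8 lower. Ly6g, which defines neutrophils, was listed at 0, 0 and 0 and 0, 0 and 0.0986 TPM. The part of these cells in the net state was not tested.

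In the dendritic cell list, 4 of 7 tested were called higher and 1 lower, beside 13.8% and 12.9% of all genes. Of its 10 members, 3 were above 1 TPM in a media/vehicle library and 5 in a WT CM/CDDO-Me library, so some entered the test through the libraries in which they were high and the count is a description. Clec9a, a receptor for dead cells on cross-presenting dendritic cells, went from 0.0142, 0.208 and 0.0103 TPM to 95.4, 95.5 and 123 TPM and Xcr1, the XCL1 receptor of the same cells, from 0.119, 0.113 and 0.0885 TPM to 4.69, 3.97 and 2.92 TPM. Batf3, a transcription factor they need, rose by 1.55, and Bst2, their most abundant gene, also belongs to the type I interferon list. The member called lower was Fscn1, at -1.25 to -0.90 over the alternatives, with the call lost under 5 of 18. Flt3, Siglech and Ccr7, which define dendritic cells or their migration, were under 1 TPM in all 6 libraries. The list summed to 358, 341 and 280.2 TPM in media/vehicle and 843, 911 and 782 TPM in WT CM/CDDO-Me, and the part of such cells in these results was not tested.

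The large rise of the GTPase list was seen with neither treatment alone among these groups. The other groups share libraries with the net comparison, so their differences are given side by side and not as separate evidence. Against WT CM/vehicle, WT CM/CDDO-Me had 1895 genes higher (13.9%) and 1903 lower (13.9%), and against media/CDDO-Me 1870 higher (13.7%) and 1786 lower (13.1%). Without scaling the splits were 1581 against 2459 and 1363 against 2696. Without the 2 NRF2 KO CM libraries they were 3205 against 2721 and 3234 against 2745. The GTPase list differed from naïve by a median of 0.23 in WT CM/vehicle and -0.13 in media/CDDO-Me, against 5.88 in the net comparison. For the interferon signalling factors these medians were 0.31 and -0.05, against 1.46. Cxcl9 was at 0.0352, 0.0471 and 0.0926 TPM in WT CM/vehicle and 0, 0.0125 and 0.084 TPM in media/CDDO-Me, and Gbp2 at 10.6, 8.56 and 17.5 and 12.7, 13.1 and 11.6 TPM. Clec9a read 0.0793, 0 and 0.497 TPM and 0.0798, 0.0923 and 0.0416 TPM in these groups, so its rise too was seen in WT CM/CDDO-Me only, of these 4 groups.

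The interaction asks whether the net difference departs from the sum of the medium and drug differences on the log2 scale. It was called for 1134 genes above (8.3%) and 921 below (6.74%) that sum. Without scaling the split turned to 995 above and 1159 below, and without the 2 NRF2 KO CM libraries it was 2225 above and 1691 below. Above it were 31 of 32 members of the GTPase list (median 5.19), 35 of 38 type I interferon genes and 14 of 24 interferon signalling factors. None was below it in any of these lists. Cxcl9 exceeded the sum by 10.64 (SE 0.34, adjusted p = 1.09e-14) and Ccl5 by 9.17 (SE 1.02). Below it were 21 of 28 alternative activation genes (median -2.19), 17 of 24 sterol genes (median -1.03) and 14 of 34 cell cycle genes. Chil3 lay -8.14 (SE 0.63) and Ccl9 -5.83 (SE 0.40) from the sum. Chil3 was low in media/vehicle, as given above, so CDDO-Me could lower it little there. For a gene that WT CM raises from such a level, a return to the naïve level gives a negative interaction by itself.

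For the NRF2 lists, 1 of 19 and 1 of 25 members lay above the sum and 5 and 8 below, beside 8.3% and 6.74% of all genes. Gclm read 1161, 1084 and 1471 TPM with CDDO-Me alone and 50.2, 43.5 and 52.96 TPM with WT CM alone, and its interaction was 0.24, SE 0.40, adjusted p = 0.819. That of Nqo1 was -1.17, SE 0.47, adjusted p = 0.108. Hmox1 lay below the sum at -0.79, SE 0.26, adjusted p = 0.0432.

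The comparison by genotype of the cancer cells under CDDO-Me gave few calls, and their number moved with the fit. Against KEAP1 KO CM/CDDO-Me, in which the medium came from LL2 cells edited in KEAP1, WT CM/CDDO-Me had 1 gene higher (0.00732%) and 6 lower (0.0439%), 7 in all of 13661 (0.0512%), while 570 passed 0.05 before adjustment. A fit blocked on replicate number called 2 higher and 26 lower, array weights gave 213 calls, and the fit without the 2 NRF2 KO CM libraries gave 48. The compared groups alone gave 0 calls in limma, with 790 genes under 0.05 before adjustment, so none of the genes named next was called there. Leaving out a single library gave 2 calls without KEAP1 KO CM/CDDO-Me replicate 1, 3 without its replicate 2 or without WT CM/CDDO-Me replicate 2, and 25 without KEAP1 KO CM/CDDO-Me replicate 3. The median size of a difference was 0.10. Gbp2b was the gene higher, at 253, 177 and 213 TPM against 111, 91.8 and 153 TPM (log2 difference 0.88, SE 0.16, adjusted p = 0.0434). Heph, a copper ferroxidase, read 1.62, 1.76 and 2.93 TPM against 5.95, 8.29 and 5.99 TPM (log2 difference -1.34, SE 0.18, adjusted p = 0.00306), and Ptn, the growth factor pleiotrophin, 0.214, 0.634 and 0.879 TPM against 5.64, 9.87 and 3.19 TPM. The other 4 were F5, Mt3, Rgs16 and Smt3h2-ps4, all at under 10 TPM in both groups. The GTPase list summed to 24596, 22064 and 23952 TPM with KEAP1 KO CM, a range that overlaps the one with WT CM given above. A p that misses the threshold does not show that the media act alike.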

How the data were processed

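Poly-A RNA of 24 BMDM cultures was sequenced. The authors pseudo-aligned the paired reads with Kallisto to the GRCm39 cDNA, and the deposited table holds TPM for 35770 gene names in 24 columns, each tied to a sample by its library name. Total TPM is fixed by construction, so depth per library is unknown and no counting interval is given. A row with no gene name (0.0199% to 0.0635% of a library) was left out.

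Genes above 1 TPM in at least 3 of the 24 libraries (13661) were scaled by TMM factors (trims of 30% and 5%), put on log2(TPM + 1) and fitted in limma 3.58.1 (R 4.3.3) as 8 group means with moderated, trended variances and 16 residual degrees of freedom, two-sided. No block was used. No count test was run, since TPM are not counts. The shared spread includes the NRF2 KO CM groups, whose median gene SD on the log2 scale was 0.37 (vehicle) and 0.28 (CDDO-Me), against 0.13 in media/vehicle and 0.14 in WT CM/CDDO-Me. The labels do not say whether samples of a group came from separate animals, so p-values measure the spread between these samples, which may be technical.

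The members, the 34 gene lists (6 of them markers of other cells) and the tests were chosen with earlier results of these data known. Lists are described by counts and medians, and 7 genes (Bst2, Fcgr1, Cd68, Cd209a, Itgam, Mertk and Tyrobp) stand in a pair of lists. Named genes were the 12 largest log2 rises and 12 largest falls among called genes with at least 5 TPM in the higher group and no overlap between groups, leaving out predicted names, the 5 largest rises and falls in TPM under the same conditions, up to 6 of the most abundant called members per list, 25 genes always named and the 6 largest interactions each way. Ifngr1, Ifngr2, Ifnar1, Isg15, Ifit1, Isg20, Ifitm3, Socs1, Csf1r, Lyz2, Pmvk, Flt3, Siglech, Ccr7, Il1a, Idh1, Blvra, Bgn, Spi1, Gbp10, Epcam, Cd3e, Gzma, Ncr1 and Ly6g fall outside that rule and were named after their values were seen. Some genes that the rule names are not reported here.

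Whether replicate numbers pair samples was checked by correlating deviations from group means. Same-numbered pairs gave r of 0.065, 0.243 and 0.317 for the net comparison and 0.062, 0.334 and 0.373 against WT CM/vehicle. Differently numbered pairs gave -0.280 to 0.094 and -0.381 to 0.120. For each WT CM/CDDO-Me replicate, the same-numbered sample gave the highest r. Replicate 1 missed the cut of 0.1 in both, so the numbers were not taken as pairs. A replicate block gave 4629 calls in the net comparison, against 3656 without it. Against media/CDDO-Me (0.132, 0.373 and 0.395) and KEAP1 KO CM/CDDO-Me (0.186, 0.434 and 0.535) every pair passed, and the blocked value is printed where it moved a count by over 1.5 times.

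Coordinates are from GENCODE M39 on GRCm39 (681 of 683 genes matched). Promoters are from RefSeq on GRCm38.p6, with 9987 of the 13661 genes matched, and no coordinate was carried between builds. Alternatives were other scalings, filters, pseudocounts and sample sets, no variance trend, array weights, a replicate block and leaving out each replicate. The fit was also run on simulated data, but the outcome is not given here and no result rests on it. Figures used Python 3.11.15 and matplotlib 3.10.9.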

Additional observations from a re-analysis of the deposited data

Results flagged for a closer look

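The interaction test on these 4 groups asks whether the effect of CDDO-Me differs between macrophages in WT CM and in control media. It was past the threshold for 1134 genes above and 921 below the sum of the single effects. Groups of 3 libraries are too small for the check on single outlying samples, so none was run.

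Among the named genes, the effect of CDDO-Me was more positive in WT CM for the chemokine genes Cxcl9 (interaction 10.64 on the log2 scale), Cxcl10 (9.36) and Ccl5 (9.17) and for the GTPases Iigp1 (9.16), Gbp4 (8.95) and Gbp2 (8.24). The same held for H2-Ab1 (4.83), Tnf (3.65), Irf1 (3.37), Cd274 (3.35), Nos2 (2.74) and Irf7 (2.18). It was more negative in WT CM for Retnla (-11.14), which is listed at 0 in all groups of these 4 but WT CM/vehicle, and for the alternative activation genes Chil3 (-8.14) and Mrc1 (-3.70). Ms4a4a (-7.38), the chemokine Ccl9 (-5.83), the phosphatase Dusp4 (-4.81), Bex1 (-4.61), Igfbp5 (-4.55) and the carbonyl reductase Cbr2 (-4.36) were also more negative, and Hmox1 was at -0.79.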

How the results depend on the processing

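No called gene named here changed direction under the alternatives run. Of the values recomputed in the net comparison for all genes the naming rule covers, called or not, 3758 kept their side of the threshold. Another 133 kept direction and lost the call, and 12 gained it. Genes not called could change sign, as Chil3 did, with a range of -0.46 to 0.22. The calls lost most often were Atp5po, Eno1, Hsp90aa1, Lpl, Mmp13, Nr1h2, Ptn and Trem2, and those gained were Cxcl5, Il1b and Stat6. The counts of called genes moved most with the samples and weights in the fit. The counts below are for the net comparison, the comparison with WT CM/vehicle, that with media/CDDO-Me, the interaction and the KEAP1 KO comparison, in that order. Array weights gave 6836, 7140, 7541, 5394 and 213. Leaving out the replicate 3 libraries of both NRF2 KO CM groups gave 6025, 5926, 5979, 3916 and 48, and the compared groups alone gave 5340, 5029, 5109, 3684 and 0 (limma, with 790 genes under 0.05 before adjustment). A replicate block gave 4629, 4633, 4621, 2871 and 28, and with the compared groups only 6039, 6171, 6229, 5034 and 102. The KEAP1 KO count was also 19 with no filter, 3 above 5 TPM, 4 and 23 with pseudocounts of 0.25 and 5 and 11 with no variance trend. Leaving out each replicate in turn gave 3005 to 3304, 3167 to 3386, 2808 to 3283, 1672 to 1907 and, without KEAP1 KO CM/CDDO-Me replicate 1 or 3, 2 to 25. Why the counts moved was not tested beyond the larger spread of the NRF2 KO CM groups. Without scaling, the share of higher calls in the net comparison was 33.86% against 51.7%. Gene lists that moved by over 1.5 times without scaling were NF-kB, the respiratory chain and the stromal list, given above. With no filter LXR targets had 5 calls, and above 5 TPM the epithelial list had 0 and the T and B cell list 1. Without the 2 NRF2 KO CM libraries, an alternative added after the data were seen, counts of higher and lower calls became 9 and 13 for scavenger receptors, 26 and 1 for the proteasome, 20 and 0 for the respiratory chain, 8 and 3 for the tricarboxylic acid cycle, 10 and 3 for Toll-like receptors, 3 and 14 for cathepsins, 8 and 6 for the stress response, 6 and 2 for macrophage identity and 0 and 10 for the stromal list. Depth is unknown in a TPM table, so genes near 0 carry no stated counting error.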
